A study of Mus musculus with 4 samples.

Results

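Clustered histone genes are described here as 30 genes among the 30098 genes that the array annotation names singly, in germ cells of mouse embryos with and without the Oct4-CreERT2 transgene. They were taken as every transcript cluster whose annotation holds 1 gene symbol that belongs to the Hist1, Hist2, Hist3 or Hist4 genes, with the cluster of highest mean signal for a gene that has several. The annotation carries the newer symbols (H2bc1 for Hist1h2ba), and only 3 symbols were still written in the older form, so membership was read through the older names that RefSeq lists as synonyms. The members comprise 5 linker histone H1 genes, 11 H2A, 9 H2B, 3 H3 and 2 H4 genes, of which 23 lie in Hist1, 6 in Hist2 and 1 in Hist3, and no Hist4 gene was among them. RefSeq lists 3 of them as pseudogenes (H2ac14, H2af-ps2 and H2bu1-ps).

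The study hybridized RNA of germ cells from E12.5 genital ridges to 4 DNA microarrays, 1 for each condition, so no difference between single arrays has a replicate check and none has a p-value. All embryos were of the C57/BL6 strain, carried homozygous floxed Max alleles and were exposed to tamoxifen at E8.5, and germ cells were collected with an antibody to SSEA-1 after the mesonephros had been removed. F and M are female and male germ cells without CreERT2, and FC and MC are female and male germ cells that also carried a hemizygous CreERT2 transgene driven by the distal enhancer of Oct4, through which an exon of Max, the partner of the MYC proteins, is excised. The transgene acts in cells that use this enhancer, and how many embryos went into each array is not given in the sources used here.

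Most clustered histone genes are transcribed in S phase, and their mRNAs end in a stem-loop in place of a poly(A) tail, so that histones are made when DNA is replicated. H2A, H2B, H3 and H4 form the nucleosome core, and H1 proteins bind the linker DNA between nucleosomes. A few clustered genes are germline variants: H2bc1 (Hist1h2ba) encodes TH2B, H2ac1 (Hist1h2aa) encodes TH2A and H1f6 (Hist1h1t) encodes the testis linker histone H1t, all known from male germ cells, where histones are later replaced in sperm chromatin by transition proteins and protamines.

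The bases before the start of 3 genes are shown to set the letters of H2bc1, which had the largest difference with CreERT2, beside those of H1f2 and H3c3. H1f2 had the lowest MC minus M difference of the members, and H3c3 the largest FC minus F difference after H2bc1. Sequences are those of RefSeq on GRCm38.p6 and run from 250 bases before the gene start to the base next to it, with matches to the searched letters in capitals. H2bc1 lies on the minus strand at chr13:23934157-23934406, H1f2 on the plus strand at chr13:23738557-23738806 and H3c3 on the minus strand at chr13:23745522-23745771.
H2bc1: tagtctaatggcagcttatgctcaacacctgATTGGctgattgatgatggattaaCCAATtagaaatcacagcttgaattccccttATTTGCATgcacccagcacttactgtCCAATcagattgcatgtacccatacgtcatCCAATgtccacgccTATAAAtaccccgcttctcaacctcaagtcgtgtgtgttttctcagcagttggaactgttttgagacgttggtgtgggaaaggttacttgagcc
H1f2: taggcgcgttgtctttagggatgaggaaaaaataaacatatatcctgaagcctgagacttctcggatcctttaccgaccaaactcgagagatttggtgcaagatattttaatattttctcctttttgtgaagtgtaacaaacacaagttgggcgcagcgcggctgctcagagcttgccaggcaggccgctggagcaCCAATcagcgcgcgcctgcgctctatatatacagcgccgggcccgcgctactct
H3c3: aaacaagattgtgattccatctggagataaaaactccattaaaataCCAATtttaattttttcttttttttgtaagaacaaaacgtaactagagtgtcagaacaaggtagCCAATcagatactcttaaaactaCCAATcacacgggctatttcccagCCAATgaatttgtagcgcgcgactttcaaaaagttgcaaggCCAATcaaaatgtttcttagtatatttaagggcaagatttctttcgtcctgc
The stretch before H2bc1 held 4 CCAAT boxes, 1 octamer and 1 TATA box, and that before H3c3 held 5 CCAAT boxes, whereas H1f2 had 1 CCAAT box. H2bc1 and H2ac1 are transcribed away from each other with 280 bases between their starts, and their stretches share 220 bases, so a match in the shared bases counts for both genes.

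Start regions were in the table for 25 of the 30 members and for 32851 genes in all, and both strands were searched. The CCAAT box, spelled CCAAT, was found before 24 of the 25 members (96.0%) and before 33.85% of all genes. The octamer, spelled ATTTGCAT, was found before 8 members (32.0%) and before 1.6% of all genes. These 8 were 5 of 7 H2B genes (H2bc1, H2bc3, H2bc12, H2bc14 and H2bc18) and 3 of 9 H2A genes (H2ac1, H2ac12 and H2ac20). They are not 8 separate sites, since the octamer of H2bc1 and H2ac1 lies in their shared bases. The matches before H2bc12 and H2ac12 also mirror each other on opposite strands, as shared bases would. Their octamers lie at -30 to -23 and at -155 to -148 from the start. The TATA box, spelled TATAAA, was found before 10 members (40.0%) and 12.37% of all genes. The core letters of E2F sites, TCCCGC, were found before 3 members (H2ac15, H3c8 and H4c1) and 16.9% of all genes. Their longer form, TTCCCGC, was found before 1 member (4.0%) and 3.82% of all genes, and every longer match contains a core match. The letters CACGTG, the E-box bound by MYC and MAX, were found before 0 of the 25 members and before 6.02% of all genes. A match is given as letters and not as a bound site.

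Signals of the members ran from dim to among the brightest on the array. Of the 30 genes, 21 had a mean log2 signal at or above 4.52, the median of all genes, 11 had a mean under 5 and 4 had a mean of 12 or more. Signals are not set against each other gene by gene, since each comes from its own probes. Near-identical histone genes can also share probes, so the signals of paralogs are uncertain: the pseudogene H2ac14 read 18.75 (F), 18.54 (FC), 18.78 (M) and 18.16 (MC), and H2ac10, a coding H2A gene, read 18.30, 18.10, 18.20 and 17.87. Over the 4 arrays, 13 members varied by less than 0.5 on the log2 scale, and the range was smallest for H2ac21, at 0.17, and largest for H2bc1, at 4.68.

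**Figure D1:**
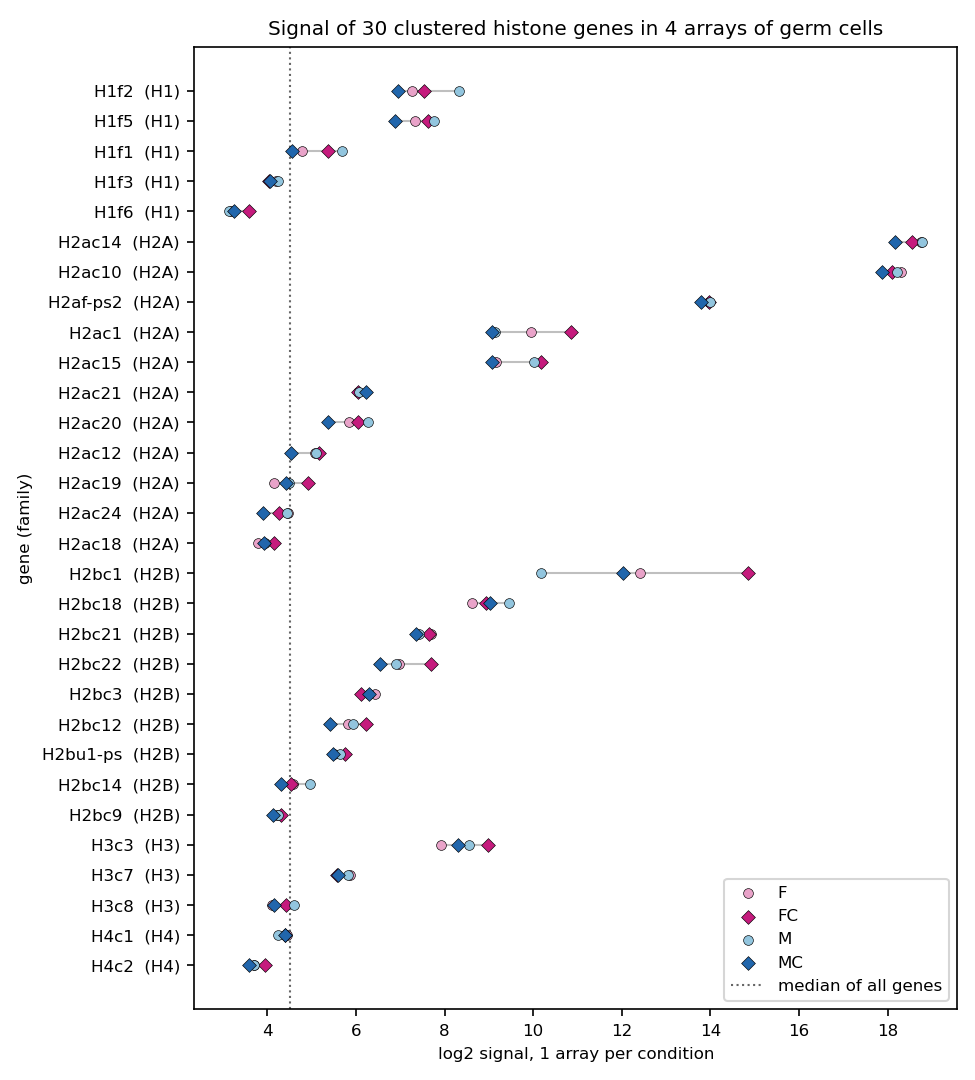
Log2 signal (x axis) of each of the 30 histone genes (y axis, by family and mean signal) in the arrays F, FC, M and MC, with 1 point per array, a grey line for the range over arrays and a dotted line at 4.52, the median mean signal of all genes. H2bc1 spreads from 10.17 in M to 14.85 in FC, the widest range of the members.

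Before the results, the labels were checked against the data. All 10 germ cell markers were measured, with median log2 signals of 9.73 (F), 9.94 (FC), 9.28 (M) and 9.22 (MC). Y-linked genes gave signals on the F array, with Uba1y at 9.69 in F and 5.52 in FC against 12.82 in M and 13.26 in MC, and Xist, the X-inactivation RNA, read 7.80 in F and 10.81 in FC against 4.55 and 4.60. The M array held more of the megakaryocyte and platelet markers, 3 of 4 of which were at least 2-fold higher than in F, with Pf4 at 10.93 in M against 7.14, 6.29 and 7.49 in F, FC and MC. Max read 10.75 (F), 10.31 (FC), 10.64 (M) and 10.33 (MC), and its probes were not examined by exon.

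H2bc1, the gene of the testis H2B variant TH2B, was the only member that was higher with CreERT2 at the 2-fold threshold in both sexes. Its log2 signal was 12.42 (F), 14.85 (FC), 10.17 (M) and 12.03 (MC). FC was thus the highest array and M the lowest, and the male array with CreERT2 lay just under the female array without it. With CreERT2 its signal was 5.39-fold higher in female germ cells (a log2 difference of 2.43) and 3.63-fold higher in male germ cells (1.86). The gene ranked 14th from the top of 30098 genes in FC minus F and 8th in MC minus M. It was also lower in male than in female germ cells, by a log2 difference of -2.25 without CreERT2, the 6th lowest of all genes, and of -2.82 with it. Both the FC minus F and the M minus F values rest on an F array that held the Y-linked signals and the lower Xist given above. The common fits below include the same array, and whether F also held male cells was not tested. When all 4 arrays were fitted together in limma for a CreERT2 effect shared by the sexes (sex entered as a block, leaving 1 residual degree of freedom), H2bc1 had a difference of 2.15 ± 0.19 (SE), which gave an unadjusted p of 0.00156 and an adjusted p of 0.664 over all genes. The common sex difference in the same kind of fit was -2.54 ± 0.19 (SE), with an unadjusted p of 0.00096 and an adjusted p of 0.323. Neither passed the threshold of 0.05 after adjustment.

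H2ac1, which encodes TH2A and is transcribed away from H2bc1 out of the shared start region shown above, differed from its neighbour in the male pair. Its log2 signal was 9.95 (F), 10.85 (FC), 9.14 (M) and 9.08 (MC). Both female arrays lay above both male arrays, with FC the highest. The difference with CreERT2 was 0.90 in female germ cells, short of 2-fold (1.02 with quantile normalization and 1.03 with cyclic loess), and -0.06 in male germ cells, and MC lay 1.77 below FC (a difference of -1.77). The female difference rests on the same F array. The common sex difference was -1.29 ± 0.29 (SE), with an unadjusted p of 0.0227 and an adjusted p of 0.333 in limma. H1f6, the gene of the testis linker histone H1t, stayed dim, at 3.18 (F), 3.58 (FC), 3.14 (M) and 3.24 (MC), all below the median of all genes. The 3 germline variants therefore did not share 1 pattern: in the deposited values only H2bc1 reached 2-fold with CreERT2, and the difference between the variants was not tested.

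In female germ cells, 3 of the 30 members were at least 2-fold higher with CreERT2 and none was lower, against 0.552% of all genes at least 2-fold higher and 0.502% at least 2-fold lower. The 3 were H2bc1, H3c3 and H2ac15. H3c3, a replication-dependent H3 gene, read 7.91 (F), 8.99 (FC), 8.55 (M) and 8.31 (MC), with F the lowest array and a log2 difference of 1.08 in FC minus F. H2ac15, a replication-dependent H2A gene, read 9.17 (F), 10.17 (FC), 10.01 (M) and 9.07 (MC), so that F and MC were low and FC and M were high, and its female difference lay on the threshold at 1.0, and ranged from 0.97 to 1.14 over the other scalings and the deposited values. Counted by sign, 19 of 30 members were above 0 in FC minus F, against 47.4% of all genes, with a median of 0.245 against -0.01 over all genes. Next in order were H2ac1 at 0.90, H2ac19 at 0.77, H2bc22 at 0.71 and H1f1 at 0.60. H2ac19 was dim, with a mean signal of 4.50. At the other end, H2bc3 was at -0.32, H3c7 at -0.29, H2ac14 at -0.21, H2ac24 at -0.21 and H2ac10 at -0.20. The female values rest on the F array, which held the Y-linked signals given above, and 4 of 7 endothelial markers were at least 2-fold lower in FC than in F, with a summed linear signal of 2131 (F) and 1234 (FC). Their part in the histone values was not tested, and in bulk RNA fewer cells of a type cannot be told apart from less RNA per cell.

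In male germ cells most members lay below 0, and H2bc1 was an exception. Of the 30, 1 was at least 2-fold higher in MC than M (H2bc1) and 2 were at least 2-fold lower (H1f2 and H1f1), against 0.219% and 0.475% of all genes. By sign, 25 members were below 0, against 47.5% of all genes, and the median was -0.24 against 0.01 over all genes. Without the 3 germline variants, 24 of 27 were below 0 with a median of -0.33. Brighter genes as a whole were also lower in MC, so genes of like signal are given beside the members. Of all genes with a mean signal of 8 or more, 70.3% were below 0 with a median of -0.13, and all 6 members other than germline variants in that range were below 0 with a median of -0.385. Between signals of 5 and 8, 59.1% of all genes and 9 of 11 such members were below 0, with medians of -0.06 and -0.36, and under 5 these were 35.0% and 9 of 10, with medians of 0.05 and -0.15.

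The linker histone genes H1f2 and H1f1 held the lowest male differences. H1f2, which encodes the widely expressed variant H1.2, read 7.27 (F), 7.54 (FC), 8.33 (M) and 6.95 (MC). H1f1, which encodes H1.1, read 4.78, 5.38, 5.69 and 4.55, and H1f5, which encodes H1.5, read 7.33, 7.62, 7.77 and 6.89. In all 3 genes M was the highest array and MC the lowest, so the male difference spans both ends of the range, at -1.38 for H1f2, -1.14 for H1f1 and -0.88 for H1f5. H1f3, the gene of H1.3, was dim and varied little, at 4.19 (F), 4.04 (FC), 4.24 (M) and 4.06 (MC). In MC minus M, H1f3 was at -0.18 and H1f6, described above, at 0.10. In female germ cells H1f2, H1f1, H1f5 and H1f3 were at 0.27, 0.60, 0.29 and -0.15. In the common fit, none of the 5 H1 genes had an unadjusted p under 0.05.

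Most core histone genes were also below 0 in the male pair, although only 1 of the 2 H4 members was. In H2A, 10 of 11 members were below 0 in MC minus M, with H2ac15 at -0.94 and H2ac20 at -0.90 the lowest, and H2ac21, a further Hist2 gene, the only member above 0, at 0.16. H2ac20 read 5.85 (F), 6.04 (FC), 6.28 (M) and 5.38 (MC), with MC the lowest. In H2B, 7 of 9 were below 0, with H2bc3 at 0.00 and H2bc1 above 0. H2bc14 was at -0.65, with signals of 4.57 (F), 4.54 (FC), 4.97 (M) and 4.32 (MC), and H2bc18, a Hist2 gene of H2B, was at -0.44, with signals of 8.62, 8.93, 9.46 and 9.02, F being its lowest array and M its highest. H2bc21, known in mouse as the olfactory variant H2be, read 7.70, 7.66, 7.42 and 7.35 and differed by -0.04 with CreERT2 in female and -0.07 in male germ cells. All 3 H3 genes were below 0: H3c8 at -0.44, H3c3 at -0.24 and H3c7 at -0.24. The 2 H4 members were dim and near 0, with H4c1 at 0.14 and H4c2 at -0.11. Of the 11 transcript clusters that list several H4 genes, described further below, 9 were below 0, with a median of -0.25.

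**Figure D2:**
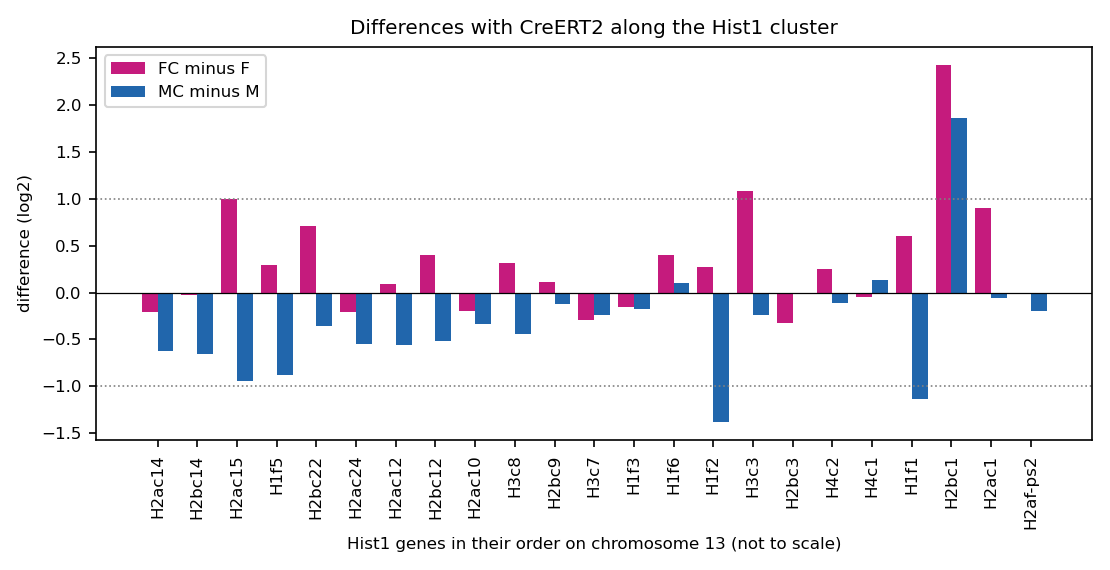
Log2 difference with CreERT2 (y axis) of the 23 Hist1 members in their order on chromosome 13 (x axis, evenly spaced), with FC minus F and MC minus M as bars from single arrays and dotted lines at 2-fold. Without the 3 germline variants, 18 of the 20 Hist1 bars for male germ cells are below 0, whereas 11 of 20 female bars are above 0.

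The opposite signs in the sexes are seen gene by gene. Of the 30 members, 17 were above 0 in FC minus F and below 0 in MC minus M, and 1 (H4c1) was the reverse. The first pattern was held by 19.8% of all genes. Opposite signs with at least 2-fold in 1 sex were held by 4 members (H1f1, H1f2, H2ac15 and H3c3) and by 0.568% of all genes. The male difference was below the female difference for 26 of 30 members and for 46.5% of all genes, with a median of -0.49 against 0.02. In the limma fit of an effect common to both sexes, such genes count as spread: 0 of 30 members had an adjusted p under 0.05, 1 had an unadjusted p under 0.05 (H2bc1), and the adjusted p ranged from 0.664 to 0.986. Over all genes 0 passed after adjustment and 7.29% had an unadjusted p under 0.05. Whether the sexes differ in their response was not tested, since each of the 4 conditions has 1 array.

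**Figure D3:**
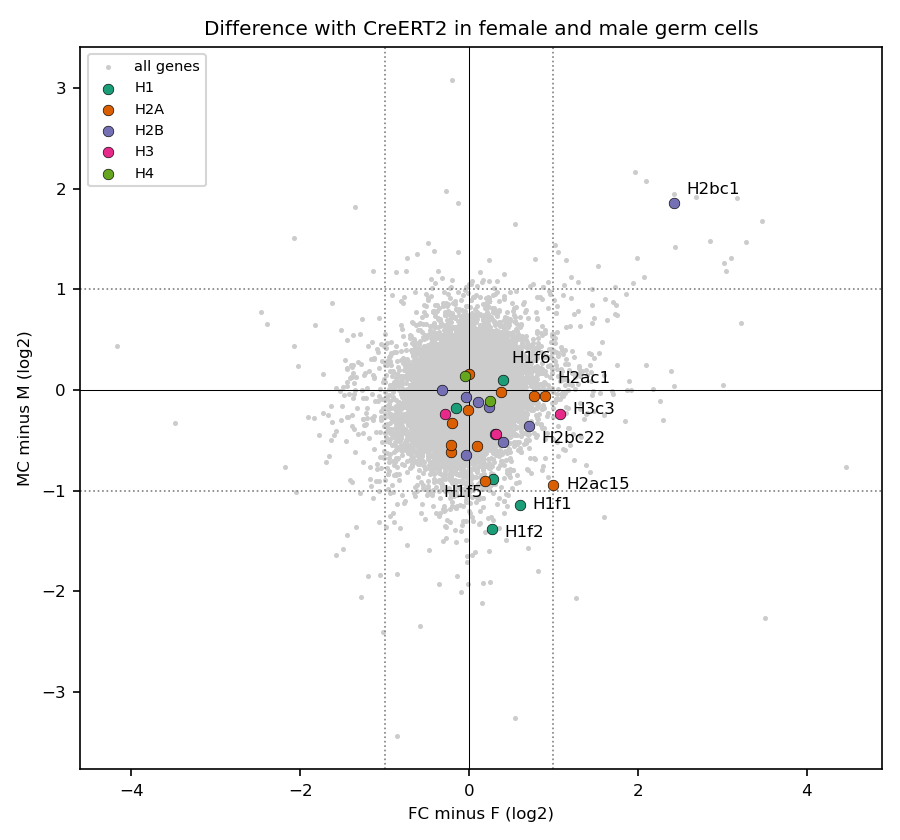
Log2 difference in FC minus F (x axis) against MC minus M (y axis) for the 30 histone genes, coloured by family, over all 30098 genes in grey, with dotted lines at 2-fold and each point from single arrays. H2bc1 is the only member past 2-fold in both sexes, and most other members lie below the horizontal zero line, with H1f2 and H1f1 the lowest.

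Between the sexes, most members were below 0 in the arrays with CreERT2, and how many lay above 0 without it depended on the scaling. In MC minus FC, 4 members were at least 2-fold lower and none was higher by as much, against 1.44% and 0.97% of all genes. These 4 were H2bc1 at -2.82, H2ac1 at -1.77, H2bc22 at -1.14 and H2ac15 at -1.10. H2bc22, a Hist1 gene of H2B, read 6.98 (F), 7.69 (FC), 6.91 (M) and 6.55 (MC), FC standing above the other 3 arrays. By sign, 25 of 30 members were below 0 in MC minus FC, against 46.1% of all genes, with a median of -0.35 against 0.02. Of all genes with a mean signal of 8 or more, 67.3% were below 0, of those between 5 and 8, 57.2%, and of those under 5, 34.3%. Members other than germline variants were below 0 in 5 of 6, 8 of 11 and 9 of 10 cases in these ranges. The 33 S phase genes had a median of -0.44, with 27 below 0. In the same comparison 4 of 7 endothelial markers and 2 of 5 Sertoli markers were at least 2-fold higher in MC, with summed linear signals of 1234 (FC) and 2364 (MC) for the first and of 352 (FC) and 465 (MC) for the second. The 10 germ cell markers had a median of -0.40, with 2 at least 2-fold lower, and the part of these in the histone values was not tested. In M minus F, H1f2 was at least 2-fold higher at 1.06 and H2bc1 lower at -2.25, against 0.731% and 0.608% of all genes, and 19 members were above 0 with a median of 0.035, against 47.2% of all genes with a median of -0.01. With quantile normalization and with median centring 13 members were above 0, with medians of -0.042 and -0.055 against -0.08 and -0.10 over all genes, and H1f2 no longer reached 2-fold. With cyclic loess 15 members were above 0, with a median of 0.023 against -0.037 over all genes. The median of the members thus lay above that of all genes under every scaling. The shares of all genes above 0 under these scalings were not computed. In the fit of a sex difference common to both genotypes, 0 of 30 members passed after adjustment and 3 had an unadjusted p under 0.05 (H2bc1, H2ac1 and H2bc21), with adjusted p from 0.323 to 0.983. For H2bc21 the difference was -0.30 ± 0.08 (SE), with an adjusted p of 0.357. Over all genes, 0 passed and 13.4% had an unadjusted p under 0.05. M minus F and MC minus M share the M array, and MC minus FC and MC minus M share the MC array, so these counts are not independent. By array, MC was the lowest for 18 of the 30 members and for 24.9% of all genes, FC was the highest for 13 and 23.8%, and M was the highest for 10 and 21.9%.

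Other RNA classes and markers of other cells are given beside the male values. The 62 ribosomal RNA genes, also without a poly(A) tail, had a median of 0.41 in M minus F and of -0.44 in MC minus M, and the 915 small nuclear RNA genes had 0.23 and -0.14. The 955 small nucleolar RNA genes had 0.11 and 0.11, and the 607 microRNA genes 0.08 and 0.06, so that short RNAs did not share a direction in MC minus M. In MC minus FC the medians of these 4 classes were 0.10, 0.09, 0.22 and 0.12, against -0.35 for the histone genes. The 4 megakaryocyte and platelet markers had a median of -2.38 in MC minus M, with 3 at least 2-fold lower, and their summed linear signal was 217 (F), 152 (FC), 2240 (M) and 256 (MC). Of 5 Sertoli markers 1 (Amh) was at least 2-fold higher in MC than M, at 1.02. Of 4 erythroid markers, 3 were above 0, with a list median of 0.195, and 1 (Hbb-y) was at least 2-fold lower, at -1.22. The part of these in the male histone values was not tested.

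Genes of the histone supply pathway did not reach 2-fold with CreERT2 in either sex. Over all genes, 0.552% were at least 2-fold higher and 0.502% lower in FC minus F, and 0.219% and 0.475% in MC minus M. At such shares, lists of this size would hold few genes at 2-fold, so their absence does not set these lists apart. Of 19 measured genes listed as replication-independent histones, such as H2az1, 9 were above 0 in FC minus F and 13 below 0 in MC minus M, with medians of -0.04 and -0.11. Of 20 factors of histone mRNA transcription and processing, 5 were above 0 and 12 below 0, with medians of -0.11 and -0.03. Slbp, which binds the histone stem-loop, read 8.32 (F), 8.65 (FC), 8.24 (M) and 7.84 (MC), and Npat, a coactivator of histone gene transcription, read 9.86, 9.28, 9.22 and 9.21. Of 33 S phase genes, 7 were above 0 in FC minus F and 27 below 0 in MC minus M, with medians of -0.12 and -0.09, and of 19 histone chaperones, 5 and 13 were, with medians of -0.16 and -0.13. Among 8 genes of sperm chromatin, whose products act when histones are replaced, the medians were 0.13 and -0.045, and Tnp1, a transition protein gene, read 3.25 (F), 3.21 (FC), 3.20 (M) and 3.12 (MC). Beside these lists, all genes with a mean signal of 8 or more had medians of -0.10 and -0.13, with 33.0% above 0 in FC minus F and 70.3% below 0 in MC minus M. The replication-independent histones and the sperm chromatin genes were dimmer, with median signals of 3.81 and 4.40 in F. All genes with a mean signal under 5 had medians of 0.02 and 0.05, with 53.6% above 0 and 35.0% below 0.

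**Figure D4:**
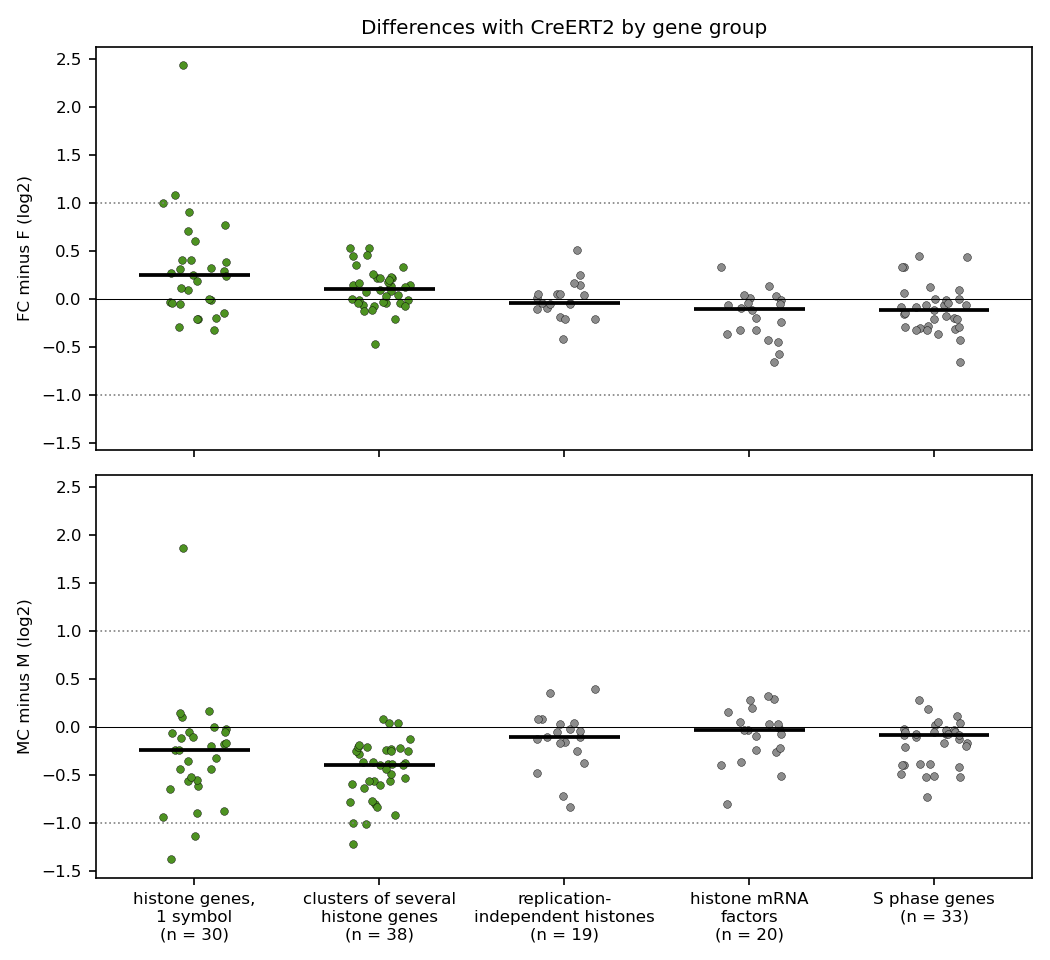
Log2 differences FC minus F (upper panel, y axis) and MC minus M (lower panel, y axis) by gene group (x axis), with 1 point per gene or cluster from single arrays, black bars for medians and dotted lines at 2-fold. The medians of the histone genes are 0.245 and -0.24, and those of the 38 clusters that list several histone genes are 0.105 and -0.395.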

How the data were processed

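RNA of germ cells was measured on 4 arrays. The values deposited by the authors are log2 signals, given to 2 decimals for 65956 transcript clusters, and were not rescaled. Array and software are described in different ways: a GeneChip Mouse Genome array with background-subtracted RMA values from R in the methods, and the WT Plus kit with Transcriptome Analysis Console in the labels, so that array type, software and the capture of RNAs without a poly(A) tail were not settled. Of the clusters, 30638 carried 1 symbol, 2176 carried several and 33142 were not in the annotation table. Older symbols were updated through RefSeq (GRCm38.p6, 330 symbols), which also gave biotypes, gene order and start regions, and this left 30098 genes. All columns of the table were mapped to a sample.

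Differences on the log2 scale between 2 arrays are given with no test, and a difference of 1 or more was counted as 2-fold. Common effects were fitted with limma over all genes (two-sided, Benjamini-Hochberg, threshold 0.05, 1 residual degree of freedom). The number of arrays limits the precision, and nothing says that arrays stand for separate litters. The fit was run on simulated data in which the change was common to both sexes. That run does not bear on genes that respond in 1 sex. Members and gene lists were chosen with earlier results of these data known. Named genes are the germline variants, all H1 genes, members at 2-fold in any comparison, the brightest and dimmest of each family, the largest differences in each sex, list members at 2-fold, Slbp, Npat, Max, Y-linked genes and Xist. H2ac19, H2ac24, H2az1, Tnp1, Pf4, Amh and Hbb-y are named as examples chosen after their values were seen. The alternatives were other scalings, a filter on dim genes, means of clusters, every cluster, other thresholds and, in limma, a prior with a trend or no block. Protein-coding members alone and clusters that list several histone genes were added after seeing the data. A comparison of protein sequences was planned and is not reported here. Computations ran in R 4.3.3 (limma 3.58.1) and Python 3.11.15 (pandas 2.3.3, numpy 2.4.6, matplotlib 3.10.9).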

Additional observations from a re-analysis of the deposited data

Results flagged for a closer look

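Of the members, 4 had opposite signs in the sexes with at least 2-fold in 1 of them, against 0.568% of all genes, and whether the sexes differ was not tested, since each condition has 1 array. H1f1 was at 0.60 in FC minus F and -1.14 in MC minus M, and H1f2 at 0.27 and -1.38. H2ac15 was at 1.0 and -0.94, and H3c3 at 1.08 and -0.24. The first 3 of these had M or FC as the highest array and MC as the lowest.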

How the results depend on the processing

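No paired analysis was possible because the labels give no replicate numbers and each condition has 1 array, so sex and CreERT2 were the only blocks fitted, and no array was left out of the common fits because no residual degree of freedom remained. There were 480 differences of single members under quantile normalization, median centring, cyclic loess or means of clusters. Each moved from its deposited value by less than the standard deviation of that comparison over all genes, and no called difference changed sign. H2ac15 fell short of 2-fold with median centring in FC minus F, at 0.97, and with cyclic loess in MC minus FC, at -0.98, and H2ac1 reached it in FC minus F with quantile normalization, at 1.02, and with cyclic loess, at 1.03. At 1.5-fold, members higher numbered 7 in FC minus F and 5 in M minus F, and members lower 7 in MC minus M, 2 in M minus F and 11 in MC minus FC. At 3-fold these were 1, 0, 0, 1 and 2. The shares of all genes at 1.5-fold and 3-fold were not computed, so these counts cannot be set against a background. In M minus F, the member at 2-fold higher (H1f2) was lost with quantile normalization and with median centring, which left 0. Clusters that list several histone genes gave 0 higher in FC minus F, MC minus M and M minus F, 0 lower in M minus F and 1 lower in MC minus FC, and 31 of 38 above 0 in M minus F. For M minus F the share over all clusters was not computed. Common fits gave 0 members after adjustment under every alternative. Dim members limit what can be seen, since 11 had a mean signal under 5.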

Other observations

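A further 38 transcript clusters list several histone genes at once and so stand outside the 30 genes, and 35 of them were below 0 in MC minus M, 3 of these at least 2-fold lower, with a median of -0.395. Over all 65956 clusters, 45.5% were below 0 and 0.767% at least 2-fold lower, with a median of 0.02. This background is not matched for signal, and brighter genes as a whole were lower in MC. Of all genes with a mean signal of 8 or more, 70.3% were below 0, with a median of -0.13. Between 5 and 8 the share was 59.1%, and under 5 it was 35.0%. All 9 clusters of H2A genes were below 0, with a median of -0.49, as were all 9 of H2B genes at -0.57 and all 7 of H3 genes at -0.53. Of 11 clusters of H4 genes, 9 were below 0, with a median of -0.25. No cluster lists H1 genes alone, and the 1 that lists H1 and H2B genes was at 0.04, while the 1 that lists H2A and H3 genes was at -0.13. The lowest were a cluster that lists 10 H2A genes, at 7.51 (F), 7.65 (FC), 8.27 (M) and 7.05 (MC), and a cluster that lists 8 H3 genes, at 6.08, 6.15, 6.47 and 5.46. In both, M was the highest array and MC the lowest, with differences of -1.22 and -1.01. In FC minus F, 24 of the 38 were above 0 with a median of 0.105, none at 2-fold, against 51% and a median of 0.01 over all clusters. In MC minus FC 36 were below 0 with a median of -0.41, against 38.9% and 0.06. For all genes with a mean signal of 8 or more the share below 0 was 67.3%. It was 57.2% between 5 and 8 and 34.3% under 5. Several of these clusters list the same genes, so they are not separate genes.

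Of the 25 members with a start region in the table, the 8 with the octamer letters had medians of 0.25 in FC minus F and -0.48 in MC minus M, and the 17 without it 0.29 and -0.24, with no test. Genes that share an octamer, such as H2bc1 and H2ac1, were each counted.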
